A study of Homo sapiens with 28 samples.

Results

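siPERK-3 is an siRNA against EIF2AK3, the gene for the endoplasmic reticulum (ER) kinase PERK, and it was compared with a non-targeting siRNA, siCtrl, in LNCaP cells under tunicamycin. LNCaP is an androgen-responsive human prostate cancer line derived from a metastasis. The comparison takes the 4 siPERK-3 libraries and the 4 siCtrl libraries that received tunicamycin, 8 of the 28 RNA-seq libraries of the series, and all 25369 genes counted in them. Libraries were chosen by their labels alone. All 8 came from cells that were reverse transfected, given 2.5 µg/mL tunicamycin for 18 h, and harvested 2 days after transfection as far as the labels state it, in 4 independent experiments with this 1 line. The sample titles call the siRNA siPERK-3, and the treatment label calls the same oligo number 2. The other groups used below had 4 libraries each: siPERK-1, the other EIF2AK3 siRNA, with tunicamycin; siCtrl with tunicamycin and 100 nM of the PERK inhibitor GSK2606414; and siCtrl with DMSO in place of tunicamycin. siPERK-3 without tunicamycin was not analysed here, so each difference between the siRNAs is one between tunicamycin-treated cells.

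Tunicamycin blocks N-linked glycosylation, and glycoproteins that cannot fold then build up in the ER. The sensors PERK, IRE1 and ATF6 report this. PERK phosphorylates the translation factor eIF2, which slows protein synthesis while favouring translation of the transcription factor ATF4, and ATF4 with its partner CHOP (DDIT3) drives genes of amino acid supply and stress. IRE1 splices the XBP1 transcript and ATF6 is cleaved to an active factor. Both of these branches drive ER chaperones and ER-associated degradation. Secretory prostate cells carry a large ER, and the unfolded protein response is well known in them. Because these are bulk libraries, fewer cells of a kind and less RNA per cell cannot be told apart.

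Library totals were 12251524 to 12606231 counts for siPERK-3 and 14052883 to 17253801 for siCtrl with tunicamycin, so the siPERK-3 libraries were shallower. What part that gap has in the results was not tested. The 10 most abundant genes held 8.08 to 8.70% of the counts with siPERK-3 and 7.16 to 7.57% with siCtrl. Prostate luminal markers were high in every library, with summed levels of 4391 to 4722 CPM (counts scaled to a common library size) with siPERK-3 and 4762 to 4979 with siCtrl. Summed marker levels, here and below, are scaled by library totals alone. Levels of single genes below are CPM scaled by TMM factors. They are listed from replicate 1 to replicate 4, and a dash joins the lowest and highest library of a group. They compare a gene between libraries, not genes of different length with each other. Log2 changes are given with the standard error of the edgeR fit, and a gene is called at an adjusted p under 0.05.

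EIF2AK3 (hg19 chr2:88856259-88927094), the siRNA's target, stood at 19.97, 21.9, 19.7 and 24.3 CPM in the 4 siPERK-3 libraries. With siCtrl it stood at 79.9, 95.2, 90.7 and 90.97 CPM. Every siPERK-3 library was far below every siCtrl library. The log2 change was -2.05 ± 0.07 (SE, n = 4 per group, edgeR adjusted p = 3.14e-23), to 24.1% of the control level. Tunicamycin itself, which called 34.3% of the tested genes higher and 34.7% lower than DMSO in siCtrl cells, had raised the gene from 29.2–30.9 CPM in DMSO, and every siPERK-3 library lay below that DMSO range. With siPERK-1 the level was 23.01, 30.5, 21.4 and 23.6 CPM, and the difference between the 2 siRNAs was -0.20 ± 0.08 with a 95% interval of -0.36 to -0.03, not called. The EIF2AK3 exons overlap those of the uncharacterised LOC101928371.

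**Figure D1:**
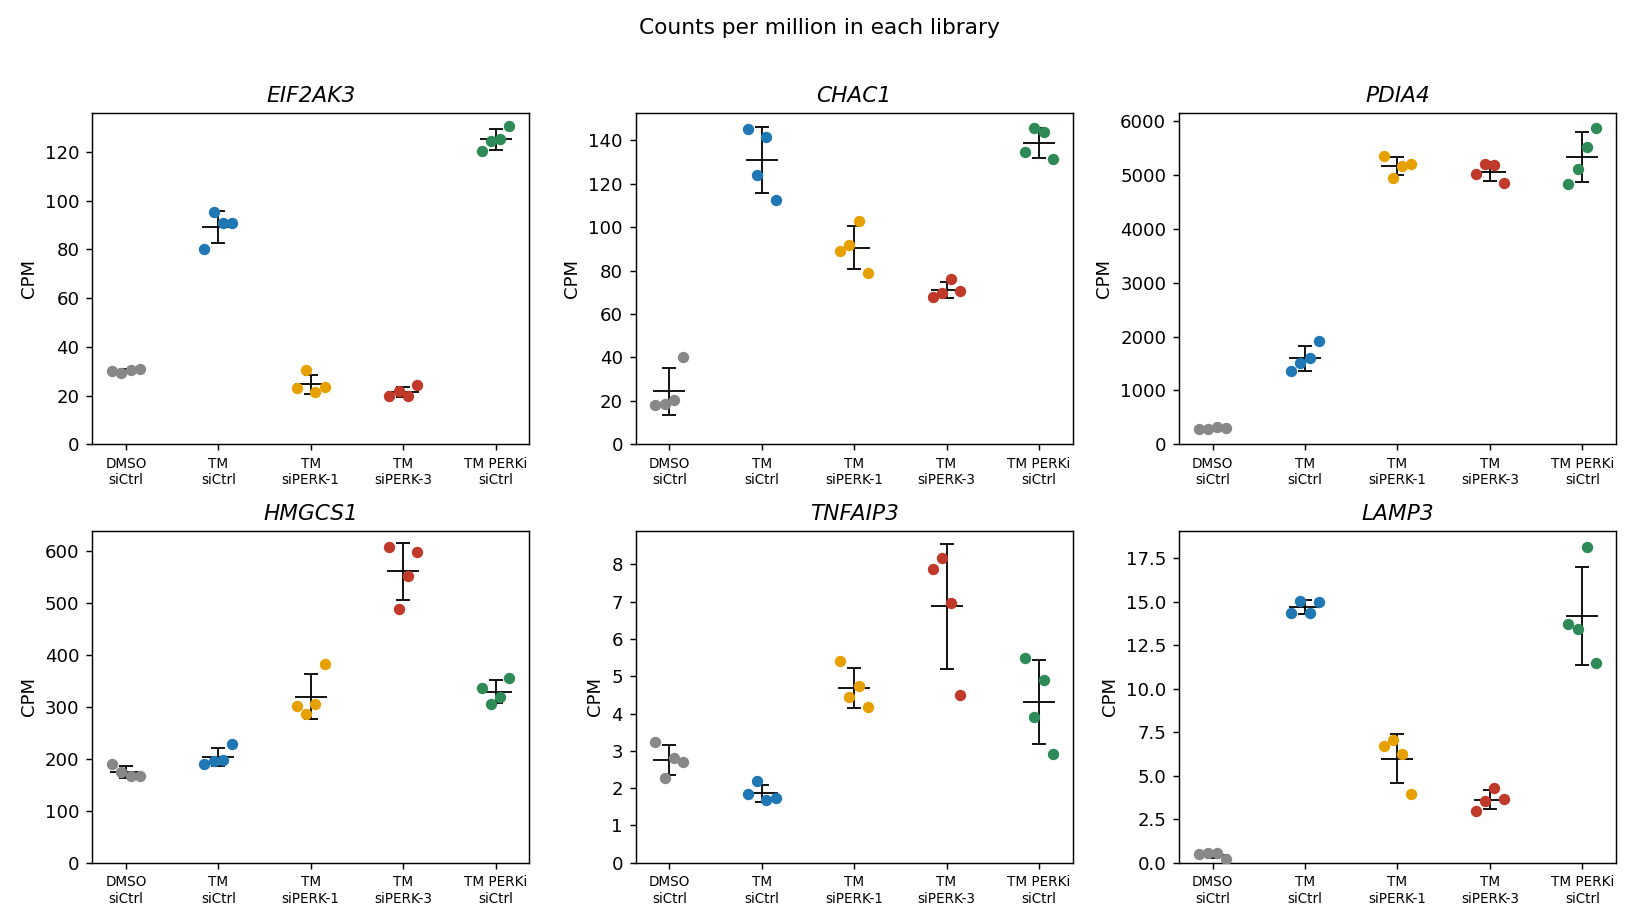
CPM in each library (points, 4 per group) with the group mean (bar) and SD (whiskers) for 6 genes in the DMSO, tunicamycin (TM), siPERK-1, siPERK-3 and PERK inhibitor (PERKi) groups. EIF2AK3, CHAC1 and LAMP3 sit below the tunicamycin control with siPERK-3, while PDIA4, HMGCS1 and TNFAIP3 sit above it in all 4 libraries.

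Across the transcriptome, 14314 genes had enough counts to be tested. Of these, 1874 were called higher with siPERK-3 (13.1%) and 1959 lower (13.7%), together 26.8%. Most of these changes were small: 101 genes (0.706%) were called and at least 2-fold higher, and 123 (0.859%) were called and at least 2-fold lower. The values of the 2 groups did not overlap for 26.6% of the tested genes. The median change over all tested genes was 0.00, and 90% of them lay between -0.51 and 0.47 on the log2 scale. These shares are the background for the counts of siPERK-3 against siCtrl below.

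**Figure D2:**
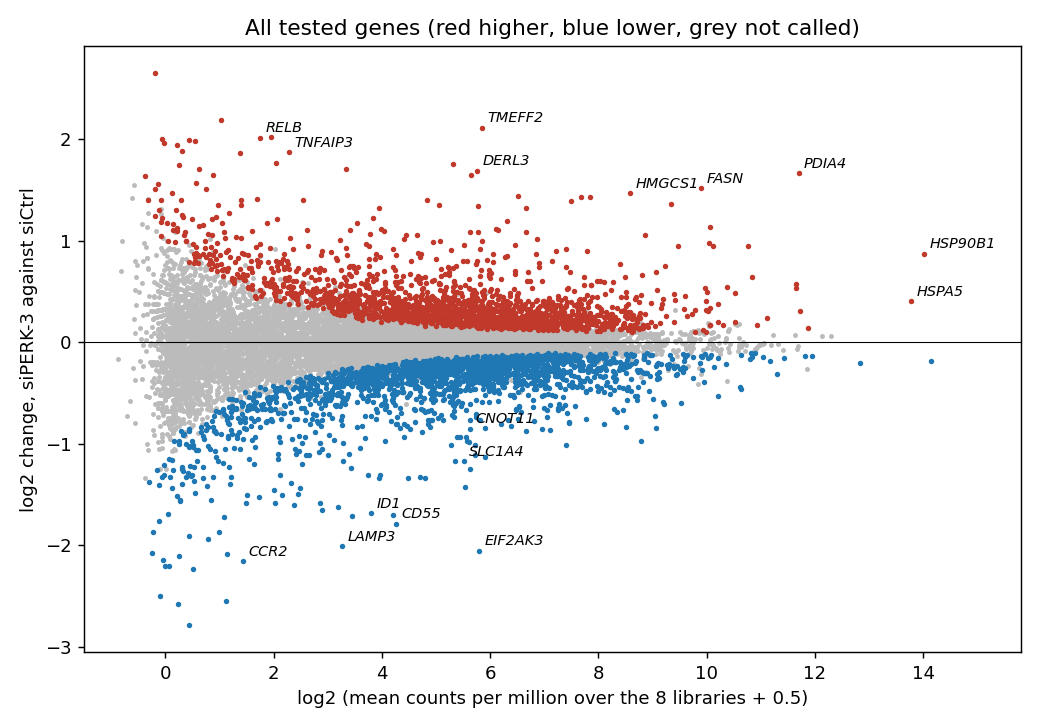
Log2 change with siPERK-3 against siCtrl (vertical axis) by the mean level of each tested gene (horizontal axis, log2 of CPM plus 0.5), with genes called higher in red (1874), called lower in blue (1959) and not called in grey. PDIA4, HSP90B1 and HMGCS1 stand out among abundant genes that rose, and EIF2AK3 among those that fell.

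Of 25 genes for eIF2 kinases, eIF2 and its exchange factor, phosphatase subunits and downstream factors, 4 were higher and 5 lower, with a median change of 0.00, or 4 and 7 with the replicate number as a block. Besides EIF2AK3 the lower genes were ATF5, a stress transcription factor, at -0.66 ± 0.11, NFE2L2, the oxidative stress factor NRF2, at -0.27 ± 0.07, PPP1R15B, the constitutive eIF2 phosphatase subunit, at -0.24 ± 0.05, and EIF2S2, the beta subunit of eIF2, at -0.17 ± 0.05. DNAJC3, an ER co-chaperone also known as an inhibitor of eIF2 kinases, rose from 323–373 to 433–503 CPM, a change of 0.44 ± 0.05 (edgeR adjusted p = 2.74e-08). The other higher genes were EIF2B3, of the exchange factor, at 0.26, the phosphatase subunit PPP1CC at 0.15 and the amino acid sensor kinase EIF2AK4 (GCN2) at 0.14. The call on EIF2S2 was lost without siPERK-3 replicate 4 (edgeR adjusted p = 0.0687). That on PPP1CC was lost without siPERK-3 replicate 2 (0.0545) or siCtrl replicate 1 (0.0937), and that on EIF2AK4 without siPERK-3 replicate 1 or 4 or siCtrl replicate 1, 3 or 4 (edgeR adjusted p up to 0.125).

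The 2 transcription factors that carry the branch were not called. ATF4 stood at 1111, 1190.3, 1198 and 1134 CPM with siPERK-3 and at 1479, 1487, 1562 and 1517 with siCtrl. Each siPERK-3 library was below each control library, and the change was -0.38 ± 0.15 (95% interval -0.67 to -0.10, edgeR adjusted p = 0.0554). ATF4 was called in 3 of 16 settings, those with a replicate block, with limma-voom and with the compared groups alone. DDIT3, which encodes CHOP, stood at 331, 376, 389.9 and 287 CPM against 259, 273, 309 and 339. The groups overlapped, and the change of 0.23 ± 0.14 was not called. Tunicamycin had raised DDIT3 from 15.9–33.2 CPM in DMSO, and every siPERK-3 library stayed far above that range. Exons of DDIT3 overlap those of MARS. TRIB3 at -0.28, PPP1R15A (GADD34) at -0.21 and ATF3 at 0.12 were not called either, although PPP1R15A was called without siPERK-3 replicate 2 (edgeR adjusted p = 0.046) and with the replicate block (0.0433).

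Among genes known as ATF4 and CHOP targets, far more were lower than higher, each by less than 2-fold. Of 41 tested, 19 were lower and 1 was higher, with a median change of -0.26, against 13.7% lower over all genes. CHAC1, which degrades glutathione, stood at 67.9, 69.6, 76.1 and 70.6 CPM with siPERK-3 and 145, 124, 142 and 113 with siCtrl. It fell to 54.3% of control (log2 change -0.88 ± 0.22, edgeR adjusted p = 0.00526), and the groups did not overlap. STC2, a secreted stress glycoprotein, fell from 387–413 to 236–259.6 CPM, a change of -0.69 ± 0.14. FAM129A (NIBAN1), a stress-induced protein, stood at 115, 132, 132 and 91.2 CPM against 178, 201, 190.2 and 178, a change of -0.67 ± 0.17 in which siPERK-3 replicate 4 was lowest. PCK2, the mitochondrial phosphoenolpyruvate carboxykinase, fell from 682–758 to 440.4–504 CPM, and ASNS, asparagine synthetase, from 495–538 to 373–415 CPM. The gene that rose, HERPUD1, encodes an ER-associated degradation factor that other stress branches also drive. It went from 1116–1281 to 1528–1828 CPM.

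The CHAC1 promoter is shown because CHAC1 fell most among these targets and because its promoter holds a C/EBP-ATF element, the composite site that ATF4 and C/EBP factors are known to bind. The sequence covers the 250 bases before the start site from RefSeq on GRCh38.p14 (chr15:40953221-40953470, plus strand), a different build from the hg19 of the counts. Capitals mark the element, searched as TGATGNAAN on either strand, which lies here on the minus strand.
CHAC1: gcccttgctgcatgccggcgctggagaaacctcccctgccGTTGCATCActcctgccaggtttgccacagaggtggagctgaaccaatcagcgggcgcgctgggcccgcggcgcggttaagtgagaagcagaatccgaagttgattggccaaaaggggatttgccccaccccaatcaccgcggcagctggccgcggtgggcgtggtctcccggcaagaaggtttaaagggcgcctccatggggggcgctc
Of 27305 RefSeq promoters of 300 bases (250 before and 50 after the start), 3.67% hold this element. Among the 19 lower targets, 15 had a promoter entry and 2 held it, CHAC1 and ASNS. Among the 21 targets not called, 15 had an entry and 3 held it, and the 1 higher target, HERPUD1, held it as well. These counts describe letters in a window and do not show binding.

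Genes of amino acid supply were more often lower than higher. Of 24 genes for amino acid synthesis and one-carbon metabolism, 11 were lower and 2 higher, with a median of -0.12. The lower genes ASNS, PHGDH, PSAT1, MTHFD2, CTH, CBS and PCK2 are also counted among the ATF4 and CHOP targets above. The counts of these lists are therefore not separate. PSAT1, of serine synthesis, fell from 823–947 to 538–619.6 CPM (-0.60 ± 0.09), and CTH, which makes cysteine, changed by -0.42 ± 0.09. GOT2, the mitochondrial aspartate aminotransferase, went the other way, from 351, 350.4, 339 and 342 CPM with siCtrl to 581, 557, 525 and 517 with siPERK-3. It did so by 0.66 ± 0.05 (edgeR adjusted p = 4.15e-12), with all 4 libraries above control. Of 21 amino acid transporters, 8 were lower and 4 higher, and the lower SLC6A9 is also among the ATF4 and CHOP targets. SLC1A4, a carrier of alanine, serine and cysteine, stood at 28.6, 28.4, 26.8 and 27.6 CPM against 64.96, 66.9, 59.3 and 59.3, a change of -1.17 ± 0.09 (edgeR adjusted p = 1.77e-11). SLC1A1, a glutamate carrier, rose from 5.95–9.16 to 15.1–22.8 CPM (1.22 ± 0.16), and SLC6A6, the taurine carrier, rose by 0.79 ± 0.17. SLC7A11, the cystine carrier, stood at 688–840.2 CPM against 967–1096 and was not called (-0.41 ± 0.18). Among 20 cytosolic aminoacyl-tRNA synthetases, 7 were lower and 3 higher, none by more than 0.26 on the log2 scale. SARS, the seryl enzyme, changed by -0.25.

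**Figure D3:**
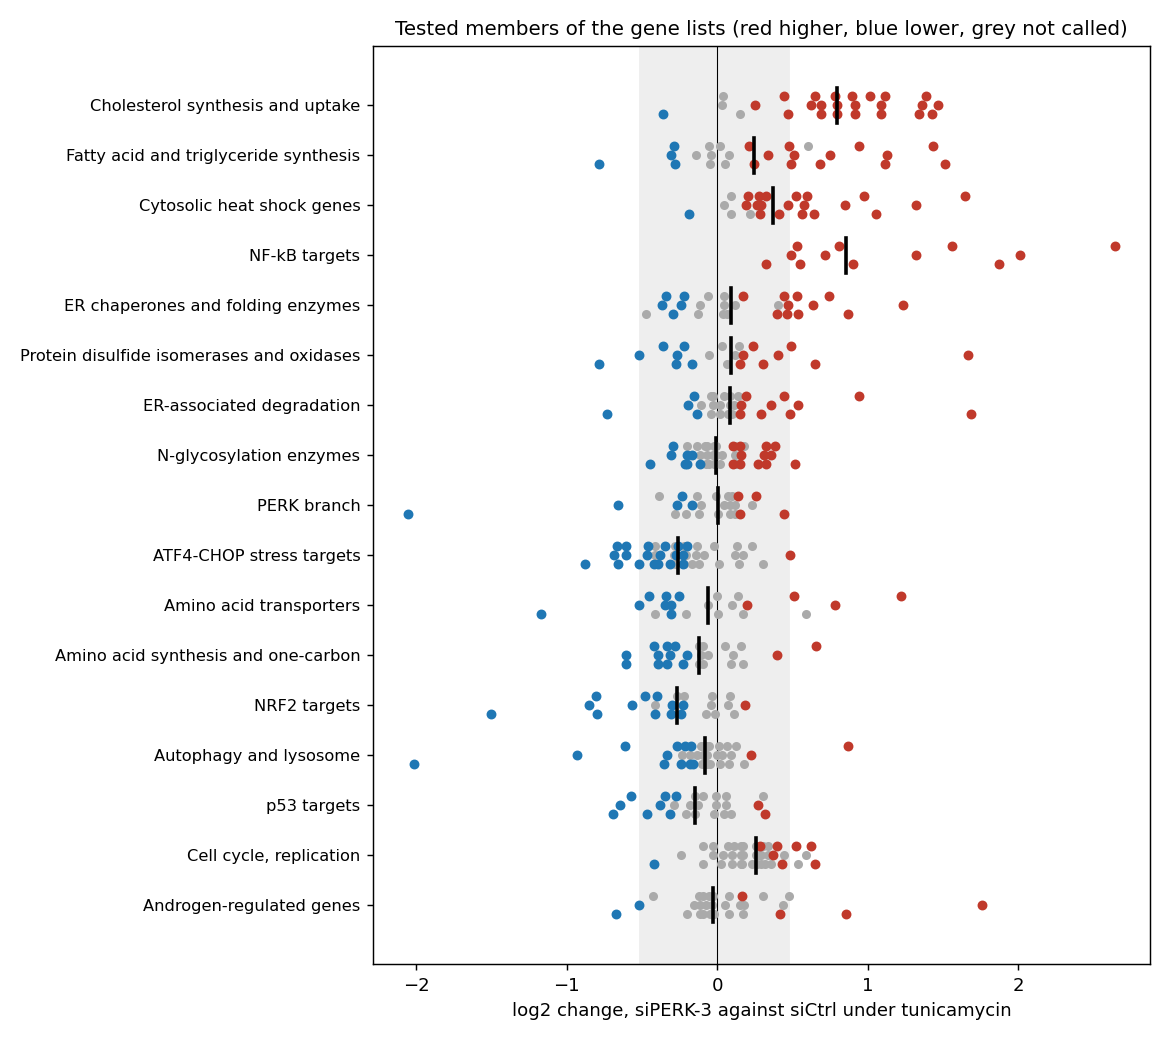
Log2 change with siPERK-3 against siCtrl for each tested member of 17 gene lists (points, with higher in red, lower in blue and not called in grey), the median of each list (black bar) and the band holding 90% of all tested genes (grey, -0.51 to 0.47). Cholesterol, heat shock and NF-kB members lie mostly to the right, and ATF4-CHOP and NRF2 targets mostly to the left.

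Tunicamycin had raised most ER chaperones, and a part of them were higher still with siPERK-3. Of 26 tested, 11 were higher, 5 were lower and 10 were not called, with a median of 0.09. HSP90B1, the ER form of HSP90 (GRP94), stood at 22175, 21802, 22040.3 and 19532 CPM with siPERK-3 against 11523, 12594, 11661 and 11027 with siCtrl and 1120.0–1438 in DMSO. The lowest siPERK-3 library, replicate 4, was above the highest control, and the change was 0.87 ± 0.06 (edgeR adjusted p = 5.69e-13). HSPA5 (BiP), the central ER chaperone, changed by a smaller 0.40 ± 0.09, from 10762–12857 to 13489.8–17414 CPM. SDF2L1, a partner of BiP, rose from 117–138 to 198–225 CPM (0.74 ± 0.07). CRELD1 rose by 0.64 ± 0.05 and HYOU1, an ER nucleotide exchange chaperone, by 0.53 ± 0.05. CALR, the lectin chaperone calreticulin, stood at 4896–5209.9 CPM against 4519–5107 and was not called (0.06 ± 0.04). SERPINH1, a collagen chaperone, was called at 1.23 ± 0.37, but its levels were only 0.414–1.53 against 0.332–0.508 CPM, they overlapped, and the call was lost without siPERK-3 replicate 2 (edgeR adjusted p = 0.066).

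Protein disulfide isomerases and their oxidases were split, 8 higher and 7 lower of 20. PDIA4 (ERp72; hg19 chr7:148700154-148725782), an isomerase that forms disulfide bonds in the ER, changed most. It stood at 5006, 5205, 5179.9 and 4843 CPM with siPERK-3 and at 1362, 1509.8, 1592 and 1920.4 with siCtrl. That was 3.17-fold higher (log2 change 1.66 ± 0.07, edgeR adjusted p = 2.46e-15), and the groups were far apart. PDIA2 rose by 0.65 ± 0.17 from low levels of 7.25–8.70 CPM. QSOX1, a secreted sulfhydryl oxidase, fell from 196–251 to 125–130.1 CPM (-0.79 ± 0.07), and TXNDC12 (ERp18) changed by -0.52 ± 0.07.

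ER-associated degradation, which returns misfolded proteins to the cytosol also held more higher than lower genes: 10 of 28 genes were higher and 4 lower, with a median of 0.08. DERL3, a channel component, stood at 84.9, 81.4, 75.7 and 86.4 CPM against 27.8, 23.7, 24.9 and 25.6 and was 3.22-fold higher (log2 change 1.69 ± 0.14, edgeR adjusted p = 3.98e-09). Its exons overlap those of SMARCB1. SEL1L, the scaffold of the main ER ubiquitin ligase, rose from 678–839 to 1247–1593 CPM (0.94 ± 0.08), and VCP, the ATPase that extracts substrates, rose by 0.53 ± 0.04. SYVN1, the ligase itself, rose by 0.45 ± 0.05. SEL1L3, a relative of SEL1L whose role is less clear, fell from 629–687 to 383–429.9 CPM (-0.73 ± 0.09).

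ERN1, which encodes IRE1, fell from 67.5, 68.6, 69.8 and 69.5 CPM to 45.8, 47.6, 50.7 and 38.5 (-0.59 ± 0.08, edgeR adjusted p = 2.2e-07), without overlap. ATF6 fell (-0.33 ± 0.05), as did XBP1 (-0.26 ± 0.05). TRAF2, an adaptor of IRE1, rose by 0.50 ± 0.08. In all, 4 of 17 genes of these branches were higher and 5 lower. Among other sensors CREB3 was called lower, while ATF6B and CREB3L2 were not called. Splicing of XBP1 and cleavage of ATF6 are not measured by gene counts.

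Promoters of HSP90B1 and SDF2L1 are shown because these chaperones rose and hold ER stress elements, the sites through which ATF6 and XBP1 are known to act. Both sequences are the 250 bases before the start site (RefSeq, GRCh38.p14, plus strand), HSP90B1 at chr12:103930160-103930409 and SDF2L1 at chr22:21642052-21642301. Capitals mark ERSE (CCAAT, 9 bases of any kind, then CCACG) in HSP90B1, once on each strand, and ERSE-II (ATTGG, 1 base of any kind, then CCACG) on the minus strand of SDF2L1.
HSP90B1: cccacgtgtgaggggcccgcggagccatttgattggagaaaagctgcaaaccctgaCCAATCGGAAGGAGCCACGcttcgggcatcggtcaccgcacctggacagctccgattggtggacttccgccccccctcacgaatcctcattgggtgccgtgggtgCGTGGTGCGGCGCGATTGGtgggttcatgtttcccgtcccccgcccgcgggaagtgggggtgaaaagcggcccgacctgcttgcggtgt
SDF2L1: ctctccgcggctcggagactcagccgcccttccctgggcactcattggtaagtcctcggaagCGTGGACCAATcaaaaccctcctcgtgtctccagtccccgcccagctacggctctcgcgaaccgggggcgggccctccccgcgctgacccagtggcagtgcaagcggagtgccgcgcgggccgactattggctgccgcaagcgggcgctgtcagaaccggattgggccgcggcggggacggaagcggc
ERSE occurs in 0.0806% of the 27305 promoters and ERSE-II in 0.0549%. All 11 chaperone genes that were higher had a promoter entry: 4 held ERSE (HSPA5, HSP90B1, CANX and CRELD2) and 2 held ERSE-II (HYOU1 and SDF2L1). Neither was found in the 3 promoters matched for the 5 lower chaperones. CALR, not called, also holds ERSE, as does XBP1, which fell, so the letters alone did not mark the genes that rose. Of 8 matched promoters of higher degradation genes, HERPUD1 held ERSE-II, and UBE2J1 and VCP held TGACGTGG, the UPRE searched on both strands, found in 0.795% of all promoters. Among the called chaperones HYOU1, which rose, and DNAJC10, which fell, held the UPRE as well.

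Entry into the secretory route and N-glycosylation, the step tunicamycin inhibits, showed no common direction. Of 54 genes of vesicle coats, the translocon and its receptors, 8 were higher and 8 lower, near or below the 13.1% and 13.7% of all genes. The members that moved most were SRPR, the signal recognition particle receptor, at 0.38 ± 0.06, and COPB1, a COPI coat subunit, at -0.30 ± 0.05. Of 40 N-glycosylation genes 12 were higher and 8 lower, with a median of -0.01. MAGT1, an oxidoreductase subunit of the oligosaccharyltransferase, rose from 431–472 to 598–665 CPM (0.51 ± 0.05), and PRKCSH, the beta subunit of glucosidase II, fell from 292–316 to 206–248 CPM (-0.45 ± 0.05).

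Nearly all cholesterol genes were higher. Of 26 tested genes of cholesterol synthesis, uptake and their control, 22 were higher and 1 was lower, with a median change of 0.80. HMGCS1, the HMG-CoA synthase at the head of the pathway, stood at 607, 487, 551 and 598 CPM with siPERK-3 and at 190.5, 197, 198 and 228 with siCtrl. It was 2.76-fold higher (log2 change 1.47 ± 0.11, edgeR adjusted p = 1.36e-09), with no overlap. FDFT1, squalene synthase, rose from 330.3–414 to 906–1014 CPM (1.36 ± 0.09), and MSMO1, a later sterol oxidase, by 1.39 ± 0.10. INSIG1, the ER protein that retains the SREBP complex and is itself an SREBP target, stood at 355, 328, 320.3 and 343 CPM against 114, 119.8, 107 and 159 (1.43 ± 0.15). SREBF2, which encodes the master factor SREBP2, rose by 0.25 ± 0.06.

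Tunicamycin itself had raised 6 of these 26 genes and lowered 11. HMGCS1 stood at 167–190.0 CPM in DMSO and was not called for tunicamycin, whereas INSIG1 had fallen from 222–313 CPM. In every siPERK-3 library both genes lay above their DMSO range. The gene that fell was SC5D, a late sterol desaturase, from 419.5, 449.6, 459 and 423 CPM with siCtrl to 337, 339, 361 and 327 (-0.36 ± 0.05). Tunicamycin had raised SC5D from 123–129.6 CPM in DMSO. PMVK and SCAP were among the 3 genes not called.

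**Figure D4:**
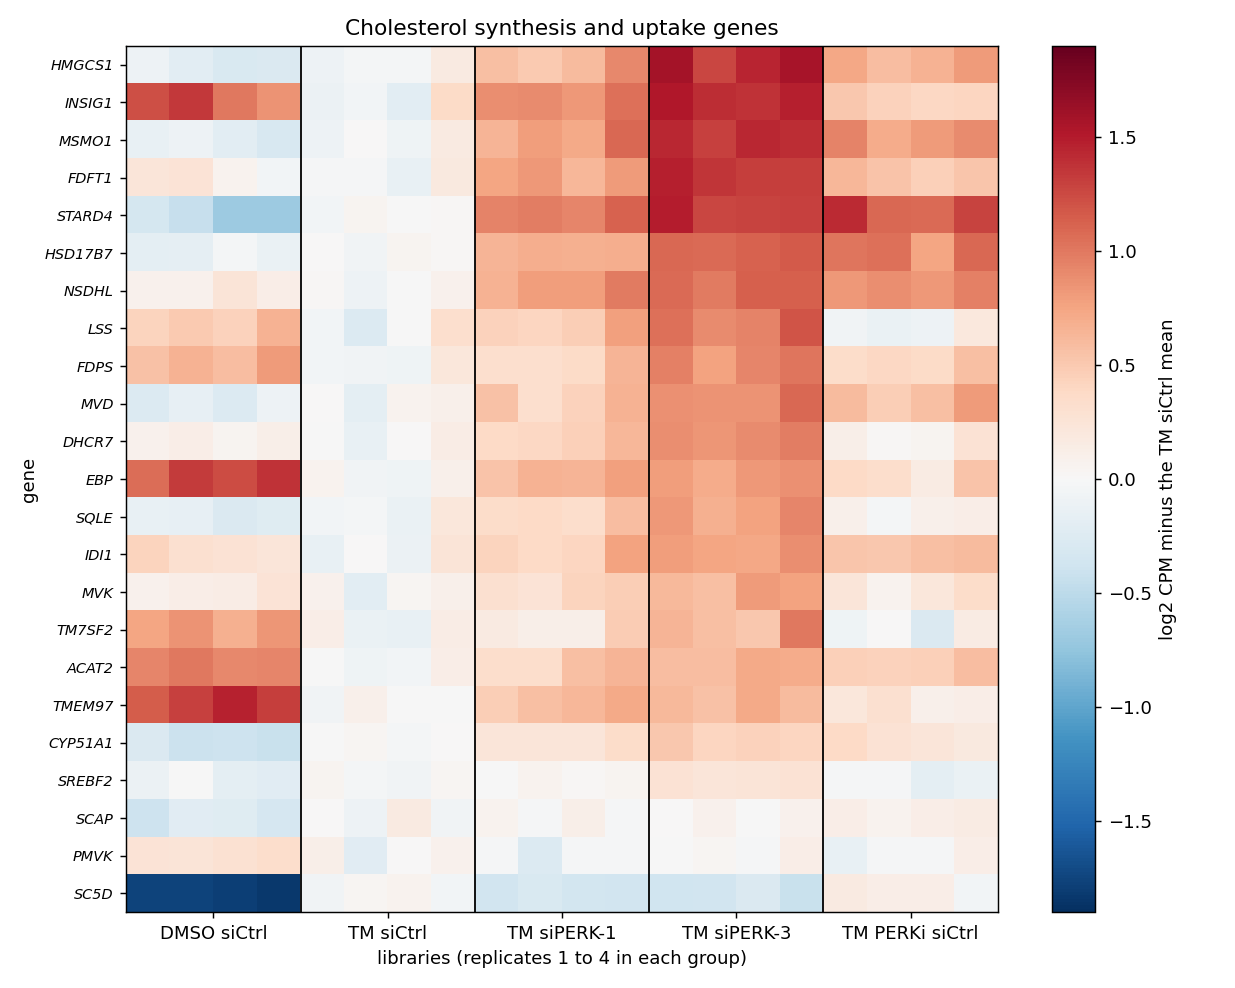
Log2 CPM minus the mean of the tunicamycin control (colour, red above and blue below) for 23 of the 26 tested cholesterol genes (rows) in each library (columns, replicates 1 to 4 of 5 groups). With siPERK-3 all 4 libraries are red for the 20 plotted genes that were called higher, and SC5D, in the bottom row, is the gene called lower.

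Fatty acid genes were higher in part. Of 25 genes for fatty acid and triglyceride synthesis, 13 were higher and 4 lower, with a median of 0.24. FASN, fatty acid synthase, stood at 1468, 1265, 1289 and 1655 CPM with siPERK-3 and 493, 435, 472 and 585 with siCtrl. It was 2.86-fold higher (log2 change 1.52 ± 0.13, edgeR adjusted p = 1.27e-08) but stayed below its DMSO level of 2093–2895 CPM. LPIN1, the phosphatidate phosphatase lipin 1, stood at 332, 285, 296 and 279 CPM against 104, 98.5, 107 and 132 (1.43 ± 0.10), above its DMSO level of 88.5–93.4. FADS2 and ELOVL6, which desaturate and lengthen fatty acids, rose by 1.13 ± 0.09 and 1.12 ± 0.11, and SCD, the stearoyl-CoA desaturase, by 0.95 ± 0.10. FADS2 exons overlap those of FADS1. SREBF1, which encodes the lipogenic factor SREBP1, rose from 204–255 to 293–394 CPM (0.47 ± 0.09).

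Cytosolic chaperones of the heat shock response, which fold proteins outside the ER, were raised as well. Of 24 tested, 19 were higher and 1 lower, with a median of 0.37. HSPA1B, an inducible HSP70, stood at 104, 73.1, 72.00 and 50.2 CPM with siPERK-3 against 23.02, 22.8, 22.6 and 27.2 with siCtrl. All 4 libraries were above control, with replicate 1 highest and replicate 4 lowest, and the change was 1.65 ± 0.20 (edgeR adjusted p = 1.37e-06). HSPA1B has a near-identical copy, HSPA1A, which was under the count minimum, so the split of reads between them is uncertain. HSPH1, an HSP70 partner, stood at 186, 139, 148 and 102 CPM against 51.6, 56.99, 58.2 and 63.5 (1.32 ± 0.16), again with replicate 1 highest and replicate 4 lowest. HSPB1 (HSP27) changed by 1.05 ± 0.20 and the abundant HSP90AA1 by 0.98 ± 0.08, from 635–789 to 1126–1666 CPM. Tunicamycin had lowered HSPH1 and HSP90AA1, from 148–193 and 1769.9–1929.7 CPM in DMSO.

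NF-kB genes that could be tested were higher with siPERK-3. NF-kB is a family of inflammatory transcription factors that induce their own subunits and inhibitors. Of 20 list members in the count tables, 12 passed the count minimum and 8 did not (CXCL1, CXCL2, CXCL3, IL6, CCL2, CCL20, ICAM1 and TRAF1). All 12 tested were called higher, but the minimum favours genes that are high in some group: TNFAIP2 reached 10 counts in every siPERK-3 library and not in every control library. CXCL8 had 4 to 14 counts per library with siPERK-3 and 1 to 3 with siCtrl. TNFAIP3 (A20), a feedback inhibitor of NF-kB, stood at 7.87, 8.18, 6.96 and 4.49 CPM against 1.84, 2.20, 1.67 and 1.73. It was 3.66-fold higher (log2 change 1.87 ± 0.19, edgeR adjusted p = 3.87e-10), with replicate 4 the lowest siPERK-3 library and still above every control. RELB, a subunit, stood at 5.50, 5.37, 4.81 and 2.78 CPM against 1.73, 1.01, 1.02 and 0.730 (2.01 ± 0.29). BIRC3 (cIAP2), an inhibitor of cell death, stood at 29.7, 23.7, 17.98 and 13.6 CPM against 7.85, 9.75, 8.13 and 8.03 (1.32 ± 0.19), and the lead over control ranged widely among the 4 libraries. The more abundant NFKBIA, which encodes the inhibitor IkB alpha, rose from 43.03–45.9 to 64.1–91.5 CPM (0.81 ± 0.07), and NFKB1 by 0.53 ± 0.07.

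The TNFAIP3 promoter is shown because this gene rose and because its window holds a pair of adjacent kappaB matches. The motif (GGG, 2 bases of any kind, then TTTCC) was searched on both strands and was chosen after the expression results were seen. The sequence is chr6:137867009-137867258 (RefSeq, GRCh38.p14, plus strand), 250 bases before the start site, with both matches in capitals.
TNFAIP3: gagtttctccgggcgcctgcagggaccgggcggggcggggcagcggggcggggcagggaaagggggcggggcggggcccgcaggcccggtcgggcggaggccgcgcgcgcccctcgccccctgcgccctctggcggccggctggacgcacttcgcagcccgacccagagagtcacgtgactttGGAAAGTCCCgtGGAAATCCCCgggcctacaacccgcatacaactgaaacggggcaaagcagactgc
Of all promoters 1.92% hold this motif. Among the 12 higher NF-kB genes 10 had a promoter entry, and 5 held it (NFKBIA, NFKB1, REL, TNFAIP3 and BIRC3). A sterol element searched in the same way (ATCAC followed directly by CCCAC) was found in 0.0476% of all promoters and in 1 of the 17 matched promoters of higher cholesterol genes, that of SREBF2.

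NRF2 targets, which handle oxidants, were mostly lower or not called. Of 23 tested, 12 were lower and 1 higher, with a median of -0.26, and NFE2L2 itself was lower as given above. AKR1C2, a steroid-reducing enzyme, stood at 1.69, 1.70, 2.40 and 2.45 CPM against 5.29, 6.66, 6.53 and 5.05 and was 2.84-fold lower (edgeR adjusted p = 4.47e-07). AKR1C1, its near-identical relative, changed by -0.80 ± 0.27, and reads may be split between them. Its call was lost without siPERK-3 replicate 1 (edgeR adjusted p = 0.0639), siPERK-3 replicate 4 (0.0921) or siCtrl replicate 3 (0.097). HMOX1, heme oxygenase 1, fell from 23.1–32.1 to 15.1–17.3 CPM (-0.85 ± 0.12).

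Autophagy and lysosome genes had 11 of 36 lower and 2 higher and a median of -0.08. LAMP3, an inducible lysosomal membrane protein, stood at 2.96, 3.58, 4.31 and 3.68 CPM with siPERK-3 against 14.3, 15.04, 14.4 and 15.01 with siCtrl and 0.211–0.551 in DMSO. It was 4.04-fold lower (log2 change -2.01 ± 0.19, edgeR adjusted p = 4.6e-10) and still well above DMSO. MAP1LC3B, the autophagosome protein LC3B, fell from 194–212 to 109.9–147 CPM (-0.62 ± 0.11). OPTN, an autophagy receptor, rose from 16.3–20.6 to 28.6–37.4 CPM (0.87 ± 0.09).

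Of 40 replication genes 7 were higher and 1 lower, with a median of 0.26, and with the replicate block 20 were higher. Of 30 mitotic genes 5 were higher and 2 lower, with a median of 0.09. CDC6, which loads the replicative helicase, stood at 74.1, 78.02, 75.2 and 76.3 CPM against 51.4, 49.7, 54.02 and 56.3 (0.52 ± 0.07, edgeR adjusted p = 1.4e-07). MCM2, a helicase subunit, stood at 22.7, 23.9, 23.4 and 30.2 CPM against 14.5, 13.7, 14.4 and 21.4 and was called at 0.65 ± 0.21, with replicate 4 highest in both groups. That call was lost without siPERK-3 replicate 4 (edgeR adjusted p = 0.104) or siCtrl replicate 1, 2 or 3 (0.0686 to 0.0841). Tunicamycin had lowered MCM2 from 154–213 CPM, so the siPERK-3 level remained far under that of DMSO. FOXM1, a mitotic transcription factor, fell (-0.43 ± 0.07), as did PLK1, a mitotic kinase (-0.48 ± 0.12).

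Of 25 p53 targets, 8 were lower and 2 higher, with a median of -0.14. XPC, a DNA damage sensor, fell from 158, 158, 159 and 146 CPM to 98.9, 103, 104 and 89.9 (-0.65 ± 0.06, edgeR adjusted p = 1.24e-11). GADD45A, which is also stress-induced, fell (-0.57 ± 0.11), as did SPATA18 (-0.69 ± 0.13). CDKN1A (p21) was called at -0.47 ± 0.17, but lost the call without any 1 library other than siCtrl replicate 4 (edgeR adjusted p 0.0514 to 0.15). Regulators of cell death were divided, 5 higher and 6 lower of 32. CASP4, an inflammatory caspase tied to ER stress, fell from 36.5–41.8 to 26.1–30.7 CPM (-0.51 ± 0.08), and BID, which links death receptors to mitochondria, rose by 0.40 ± 0.10.

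Androgen-regulated genes showed no common direction, with 4 higher and 2 lower of 29 tested. ACPP, prostatic acid phosphatase, stood at 47.5, 41.6, 71.4 and 81.4 CPM against 13.98, 16.1, 20.04 and 21.9 and was 3.38-fold higher (log2 change 1.76 ± 0.30, edgeR adjusted p = 0.000102). Its siPERK-3 levels spanned its DMSO range of 41.9–67.7 CPM. KLK3, which encodes prostate-specific antigen, stood at 218, 215, 221 and 431 CPM against 434, 411, 492 and 389. Replicates 1 to 3 were below every control and replicate 4 was inside the control range. KLK3 was called at -0.67 ± 0.24 (edgeR adjusted p = 0.0446), but in only 6 of 16 settings, and leaving out any 1 library other than siPERK-3 replicate 4 ended the call (0.0509 to 0.128).

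Among the 15 genes raised most were several known from prostate. TMEFF2, a membrane protein of prostate, led at 81.9, 89.9, 82.4 and 117 CPM against 15.2, 15.3, 19.7 and 36.5, which was 4.32-fold higher (log2 change 2.11 ± 0.24, edgeR adjusted p = 8.85e-07). Tunicamycin had lowered it from 147–193 CPM, and every siPERK-3 library lay between the tunicamycin control and DMSO. RLN1, the hormone relaxin 1, stood at 4.06, 4.68, 5.97 and 6.94 CPM against 1.31, 0.654, 1.38 and 2.06 (2.02 ± 0.35), and OR51E1, an olfactory receptor of prostate, at 3.38, 2.38, 3.65 and 3.68 against 0.714, 0.832, 0.726 and 1.33 (1.86 ± 0.34). Both had also been lowered by tunicamycin, from 8.59–11.6 and 13.1–15.5 CPM in DMSO. UGT2B10, a glucuronidating enzyme with near-identical relatives, changed by 1.70 ± 0.32, and CAMK2N1, an inhibitor of the kinase CaMKII, by 1.43 ± 0.21. ZSCAN12P1, a transcribed pseudogene, changed by 1.77 ± 0.24.

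CCR2, a chemokine receptor and one of the 15 genes lowered most, had no counts in the 4 DMSO libraries, stood at 3.63, 3.45, 4.14 and 3.12 CPM with siCtrl and tunicamycin, and at 0.761, 0.596, 1.24 and 0.572 with siPERK-3. It was 4.46-fold lower than siCtrl (log2 change -2.16 ± 0.26, edgeR adjusted p = 4.02e-08). CD55, which shields cells from complement, fell from 32.8, 29.7, 27.6 and 26.1 CPM to 8.38, 7.49, 10.03 and 7.76 (-1.79 ± 0.17), with 1.49–3.51 in DMSO. GPR1, a chemerin receptor, fell from 28.4, 25.6, 28.4 and 27.8 CPM to 6.43, 9.11, 10.6 and 7.68 (-1.70 ± 0.16), with 0.298–0.951 in DMSO. HOPX, a homeodomain-like cofactor, fell (-1.72 ± 0.16), as did UNC5B, a netrin receptor (-1.66 ± 0.18), and STK32A, a kinase (-1.63 ± 0.17). These 6 genes lay without overlap between the groups and remained above their DMSO range in every siPERK-3 library. ID1, an inhibitor of helix-loop-helix factors, stood at 2.96, 5.11, 4.97 and 12.3 CPM against 21.4, 16.9, 20.1 and 23.8 (-1.68 ± 0.29), and its replicate 4 was well above the other 3. OLAH, CNDP1, ERICH2, GPR115, LAMB4 and TSPAN7 had changes of -1.60 to -1.51. ERICH2 exons overlap those of LOC101926913.

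Some markers of other cell types were at 0 counts, and most were not. With siPERK-3, 4 of 13 fibroblast and 4 of 10 leukocyte markers were at 0. So were 0 of 6 endothelial, 2 of 9 basal epithelial and 2 of 12 neuroendocrine markers. Fibroblast markers summed to 167 to 199 CPM with siPERK-3 and 167 to 192 with siCtrl, with 0 of 6 tested called and COL1A2, DCN, CDH2 and THY1 at 0 counts. Leukocyte markers summed to 6.11 to 7.67 CPM against 5.51 to 6.27, with 0 of 2 tested called and CD3E, CD3D and MS4A1 at 0 counts. Endothelial markers summed to 14.8 to 18.6 against 10.5 to 11.6 CPM, and 1 of 2 tested, VWF, rose (0.75 ± 0.11). Basal epithelial markers summed to 68.1 to 75.0 against 97.1 to 109 CPM, with TP63 and KRT15 at 0 counts. Of 3 tested, ITGA6 fell (-0.54 ± 0.07) and ITGB4 rose by 1.40 ± 0.25, but ITGB4 reached 10 counts in every siPERK-3 library and not in every control library. Neuroendocrine markers summed to 176 to 230 against 98.3 to 148 CPM, and 3 of 5 tested rose: SYT4 by 0.96 ± 0.20, TUBB3 by 0.77 ± 0.13 and ENO2 by 0.57 ± 0.17. CHGB and INSM1, which define that type, were at 0 counts. The part of these marker shifts in the other results was not tested.

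Housekeeping genes changed by small amounts, although higher calls among respiratory chain and proteasome genes exceeded the 13.1% of all tested genes. Of 57 ribosomal protein genes 4 were higher and 9 lower, with RPS6 the lowest at -0.31 ± 0.04. Of 41 respiratory chain subunits 10 were higher and 6 lower, led by NDUFA4 at -0.39 ± 0.04 and CYC1 at 0.35 ± 0.06. Of 31 proteasome subunits 9 were higher and 0 lower, with a median of 0.05, and PSMA5 rose most (0.37 ± 0.04). Among 30 interferon-stimulated genes 3 were higher and 1 lower: IFITM3 rose by 0.71 ± 0.08 and ISG20 fell (-0.45 ± 0.09). Of 13 genes of the small RNA machinery that siRNAs use, AGO2 rose by 0.37 ± 0.06 and TNRC6C fell (-0.35 ± 0.11).

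The 2 EIF2AK3 siRNAs were compared directly. Between siPERK-3 and siPERK-1, 356 genes were called higher with siPERK-3 (2.49%) and 321 lower (2.24%), together 4.73% of the 14314, while only 3 (0.021%) were at least 2-fold higher and 19 (0.133%) at least 2-fold lower. Replicate numbers paired these libraries, and with the replicate as a block the counts were 645 higher and 550 lower. With upper-quartile scaling the split turned to 269 higher and 406 lower. Leaving out 1 library gave 211 to 341 higher and 180 to 286 lower. The lowest counts came without siPERK-3 replicate 1 (212 and 180), without siPERK-1 replicate 1 (224 and 227) and without siPERK-1 replicate 3 (211 and 205).

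Lipid genes differed between the siRNAs, although with either siRNA most cholesterol genes were above siCtrl. With siPERK-1, 20 of 26 were higher than siCtrl and 1 lower, with a median of 0.48 (0.00 over all tested genes). Of 25 fatty acid genes 11 were higher with siPERK-1 than with siCtrl and 3 lower, with a median of 0.19. Of 26 cholesterol genes 19 were higher with siPERK-3 than with siPERK-1 and 0 lower, with a median difference of 0.34. HMGCS1 stood at 301, 286, 306 and 383 CPM with siPERK-1, between the control and the siPERK-3 values given above. The difference was 0.81 ± 0.11 (edgeR adjusted p = 4.64e-05), with no overlap. FDFT1 differed by 0.61 ± 0.08 and MSMO1 by 0.57 ± 0.10, while SC5D did not reach the threshold (-0.01 ± 0.05, 95% interval -0.12 to 0.09). Fatty acid genes had 8 of 25 higher and 0 lower, with LPIN1 at 0.68 ± 0.10, FASN at 0.57 ± 0.13 and ELOVL6 at 0.57 ± 0.10.

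Against siCtrl, siPERK-1 too had 16 of 24 heat shock genes higher and 1 lower, with a median of 0.24. It had 9 of 12 NF-kB genes higher and 0 lower, with a median of 0.63. These counts again have no background share. Compared directly, 9 of 24 heat shock genes were higher with siPERK-3 than with siPERK-1 and 0 lower. With the replicate block 14 were higher, and 5 in a fit of the compared groups alone. HSPA1B stood at 46.1, 32.6, 47.5 and 38.7 CPM with siPERK-1 and differed by 0.86 ± 0.19 (edgeR adjusted p = 0.00825), which missed the threshold without siPERK-3 replicate 1 (0.0509) and in a fit of the compared groups alone (0.132). Without any 1 of the libraries other than siPERK-3 replicate 4 the count was 3 to 6. NF-kB genes had 3 of 12 higher and 0 lower, 6 higher with the block, 0 of 11 in a fit of the compared groups alone, and 0 without replicate 1 or 2 of siPERK-3 or 2 or 4 of siPERK-1, with up to 5 without another library. TNFAIP3 differed by 0.54 ± 0.16 and BIRC3 by 0.73 ± 0.18. The TNFAIP3 call was lost without siPERK-3 replicate 1, 2 or 3 or siPERK-1 replicate 2, 3 or 4 (edgeR adjusted p up to 0.181), and the BIRC3 call without replicate 1 or 2 of siPERK-3 or 2 or 4 of siPERK-1 (up to 0.0823). Against siCtrl, 18 of 57 ribosomal protein genes were higher with siPERK-1 and 0 lower, with a median of 0.07. With siPERK-3, 4 were higher than siCtrl and 9 lower, with a median of -0.03. Compared directly, 14 of the 57 were lower with siPERK-3 than with siPERK-1 and 0 higher, with a median of -0.10. That count was 26 with the block and 24 with upper-quartile scaling, and it was 6 without siPERK-3 replicate 1 and 7 without siPERK-1 replicate 3. RPS6 differed by -0.27 ± 0.04 and RPS20 by -0.33 ± 0.04.

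Among 41 ATF4-CHOP targets 1 was higher with siPERK-3 and 0 lower, and among 26 ER chaperones 1 was higher and 1 lower. Of 54 coat and translocon genes 3 were higher and 0 lower, and with the block 9 were higher. PDIA4 stood at 5338, 4944, 5157 and 5206 CPM with siPERK-1, a difference of -0.03 ± 0.07 (95% interval -0.17 to 0.11), and HSP90B1 differed by 0.00 ± 0.06 (-0.11 to 0.12). For DDIT3 the difference was 0.05 ± 0.14 (-0.23 to 0.33), which leaves room for changes of that size either way. ATF4 was -0.29 ± 0.15 (-0.57 to -0.00), not called.

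Single genes marked each oligo. CNOT11, a subunit of the CCR4-NOT deadenylase, stood at 33.5, 36.4, 31.98 and 37.98 CPM with siPERK-3, at 60.5, 65.8, 65.2 and 61.5 with siCtrl and at 60.5, 62.6, 62.3 and 65.6 with siPERK-1. It was lower with siPERK-3, by a log2 difference of -0.84 ± 0.06 against siPERK-1 (edgeR adjusted p = 1.01e-12), and it was 58.9–61.4 CPM with the inhibitor. ZNF385A, a zinc finger protein, stood at 17.9, 20.1, 20.5 and 24.3 CPM with siPERK-3, 40.6, 33.6, 37.6 and 32.9 with siCtrl and 39.6, 36.8, 38.5 and 37.5 with siPERK-1, a difference of -0.88 ± 0.09 from siPERK-1. ZMYM6NB also differed, by -1.26 from siPERK-1 and -0.76 from siCtrl, and AKR1C2 by -1.29 from siPERK-1.

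The reverse held for BLOC1S6, a subunit of a lysosome-related organelle complex. It stood at 193, 201, 194 and 199 CPM with siPERK-3, 162, 185, 188 and 203 with siCtrl and 70.6, 82.8, 74.7 and 83.9 with siPERK-1. The difference of 1.34 ± 0.06 (edgeR adjusted p = 1.41e-20) went with low siPERK-1 values, and siPERK-3 was not called against siCtrl. CD164, a sialomucin, had its low values with siPERK-1 too, at 422–439, 473–496 and 176–225 CPM in that order. SYP, synaptophysin, was higher with siPERK-1 (4.16–7.14 CPM) than with siPERK-3 (1.63–2.73) or siCtrl (1.74–3.19). Its exons overlap SYP-AS1. PRDX1, a peroxiredoxin whose exons overlap MMACHC, stood at 396–446 CPM with siPERK-3, 296–338 with siCtrl and 211–247 with siPERK-1, so siPERK-3 was highest and siPERK-1 lowest.

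**Figure D5:**
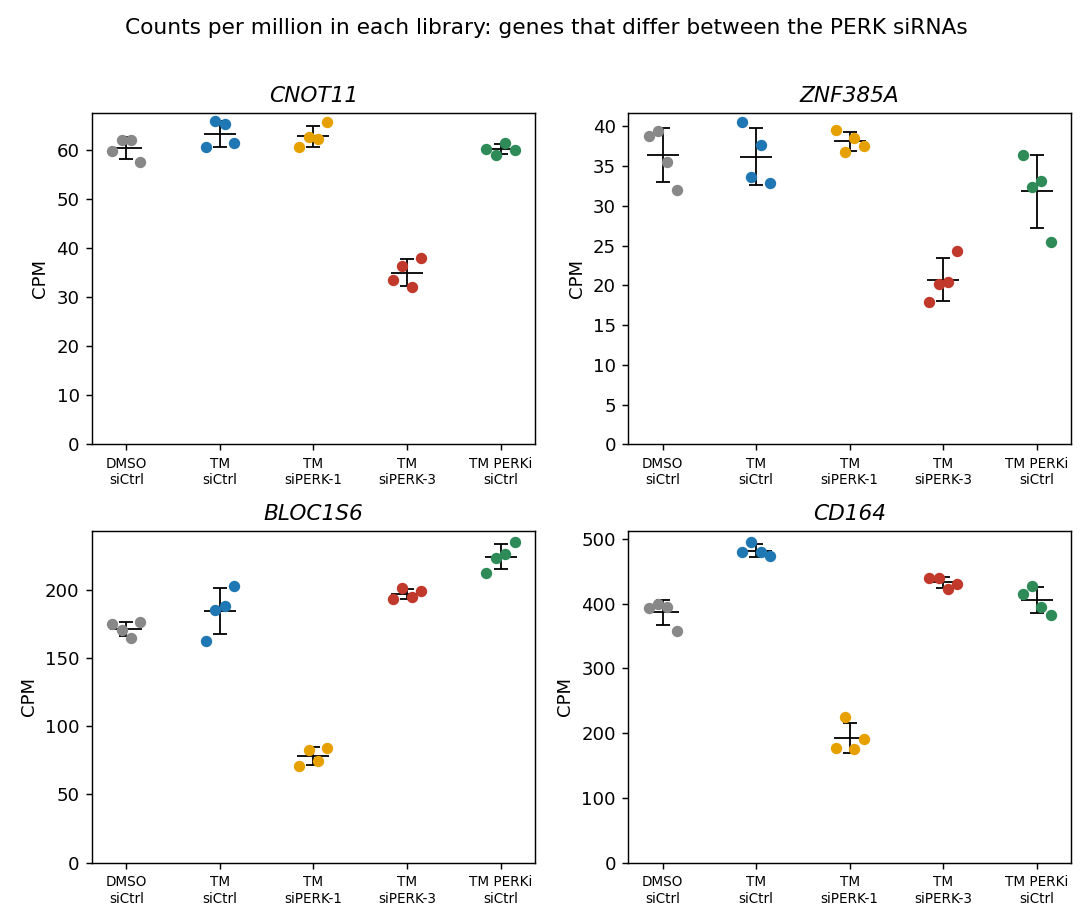
CPM in each library (points, 4 per group) with the group mean (bar) and SD (whiskers) for 4 genes that differ between the EIF2AK3 siRNAs. CNOT11 and ZNF385A are low with siPERK-3 only, and BLOC1S6 and CD164 are lowest with siPERK-1.

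The PERK inhibitor, which blocks the kinase and leaves the transcript, was compared directly with siPERK-3. Here 3381 genes were higher with siPERK-3 (23.6%) and 3352 lower (23.4%), together 47%, with 286 (2%) at least 2-fold higher and 263 (1.84%) at least 2-fold lower. EIF2AK3 itself stood at 120.2, 124, 125 and 131 CPM with the inhibitor, above the siCtrl level, and differed by -2.54 ± 0.07 with siPERK-3 (edgeR adjusted p = 8.34e-27). Most stress genes were lower with siPERK-3 than with the inhibitor. In these lists 33 of 41 ATF4-CHOP targets were lower and 1 was higher, 14 of 26 ER chaperones were lower and 3 higher, 18 of 28 degradation genes were lower and 3 higher, and 31 of 54 coat and translocon genes were lower and 5 higher. DDIT3 stood at 681, 743, 726 and 777 CPM with the inhibitor, a difference of -1.08 ± 0.14. ATF3 differed by -1.24 ± 0.14 and HSPA5 by -0.73 ± 0.09. PDIA4 did not reach the threshold, at 4819–5872 CPM with the inhibitor and a difference of -0.07 ± 0.07 (95% interval -0.22 to 0.07). Many genes of these lists were also higher with the inhibitor than with siCtrl. Against siCtrl the inhibitor had 17 of 41 ATF4-CHOP targets higher and 4 lower, with a median of 0.21. It had 13 of 26 ER chaperones higher and 2 lower (median 0.18), and 17 of 28 degradation genes higher and 2 lower (median 0.23). Of 54 coat and translocon genes it had 30 higher than siCtrl and 1 lower, with a median of 0.14.

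Most lipid and androgen-regulated genes were higher with siPERK-3 than with the inhibitor. Of 26 cholesterol genes 20 were higher and 1 lower, of 25 fatty acid genes 18 were higher and 3 lower, and of 29 androgen-regulated genes 17 were higher and 2 lower. FASN stood at 387, 379, 373 and 499 CPM with the inhibitor and differed by 1.79 ± 0.13 (edgeR adjusted p = 2.61e-10). KLK3 stood at 44.96, 56.7, 46.5 and 109.9 CPM with the inhibitor, a difference of 2.07 ± 0.26, and the lowest siPERK-3 library was above the highest inhibitor library. TMEFF2 differed by 2.21 ± 0.25, TM4SF1, a membrane protein whose exons overlap TM4SF1-AS1, by 2.14 ± 0.26, and APLN, the peptide hormone apelin, by 2.01 ± 0.22. CCR2, SCEL, LPO and GCNT3 were lower with siPERK-3, with log2 differences of -2.72, -2.57, -2.67 and -2.45 in that order. LAMP3, low with siPERK-3, stood at 13.7, 13.4, 18.2 and 11.5 CPM with the inhibitor, around its siCtrl range. Against siCtrl, the inhibitor had 16 of 26 cholesterol genes higher and 1 lower, with a median of 0.39. It had 3 of 25 fatty acid genes higher and 10 lower, with a median of -0.06. Of 29 androgen-regulated genes it had 3 higher than siCtrl and 17 lower, with a median of -0.34. As above, these counts have no background share. The siRNA comparisons and the inhibitor comparison share the siPERK-3 libraries, so their counts are not independent of each other.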

How the data were processed

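Strand-specific mRNA sequencing libraries were deposited by the authors as raw read counts per gene, made with TopHat2 2.1.0 and featureCounts 1.5.0-p1 on hg19 with DESeq2 1.10.1 downstream, per the submitters' processing notes. The strand setting of the counting is not given in the sources used here, so exons of overlapping genes may share reads. Libraries held 10794637 to 17253801 counts. The 4 libraries of a group are independent experiments with 1 cell line.

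All 28 libraries entered 1 fit in edgeR 4.0.16 (R 4.3.3): TMM factors, a filter by group (minimum count 10, total 15), the robust quasi-likelihood test, two-sided, and Benjamini-Hochberg adjustment over 14314 genes. The script was tested on simulated data. Alternatives used limma 3.58.1, DESeq2 1.42.0, other scalings, no filter, a replicate block, the compared groups alone, and each library left out.

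Members and lists were chosen with earlier results of these data known. Named genes are EIF2AK3, ATF4, DDIT3, FAM129A, the PERK branch, the 15 genes raised and lowered most against siCtrl, the 6 in each direct comparison (no overlap, mean log2 CPM of at least 1), and up to 4 called members per list. Outside this rule, and chosen after their values were seen, are HSPA5, HYOU1, SC5D, NFKBIA, SREBF2, SREBF1, XBP1, CALR, HERPUD1, ASNS, SLC7A11, SCD, NFKB1 and genes named without a value or only as promoter matches.

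Same-numbered libraries were checked for pairing by the correlation of their deviations from group means. It was 0.162 to 0.454 between siPERK-3 and siPERK-1 and 0.167 to 0.420 between siPERK-3 and the inhibitor, above 0.1 in all 4 pairs of each, so these numbers pair the libraries. Between siPERK-3 and siCtrl it was above 0.1 in 3 of 4 pairs only. A few genes are not reported here.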

Additional observations from a re-analysis of the deposited data

Results flagged for a closer look

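In 16 of 278 groups of 4 libraries checked, 1 library lay apart from the other 3, and chance gives about 13.9. siPERK-3 replicate 4 accounted for 6 of them and siCtrl replicate 4 for 6. In siPERK-3 replicate 4, KLK3 stood at 430.7 CPM against 215 to 221 in the others, MCM2 at 30.2 and CDKN1A at 203. In the same library HSP90B1 stood at 19532 CPM, COPB1 at 339 against 391 to 401, and CALR at 4896. In siCtrl replicate 4, HSPA1B stood at 27.2 CPM, HOPX at 13.4 against 16.7 to 17.2, TSPAN7 at 4.12, PRDX1 at 338, MCM2 at 21.4 and XPC at 146.

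siPERK-3 replicate 3 was apart for TM4SF1, at 8.37 CPM against 11.5 to 12.1, and for CASP4, at 30.7 CPM. siCtrl replicate 1 was apart for CXCL8, at 0.178 CPM from 3 counts. siCtrl replicate 2 was apart for BIRC3, at 9.75 CPM. The effect of each library on the calls is given with the results above.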

How the results depend on the processing

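In the comparison of siPERK-3 with siCtrl, the counts of genes higher and lower stayed within 1.5 times in every setting except the call at 2-fold or more, which left 101 higher and 123 lower. Leaving out 1 library gave 1577 to 1731 higher and 1600 to 1864 lower. Whether the replicate numbers pair these groups is not settled. Correlations were 0.028 to 0.286, above 0.1 in 3 of 4 pairs, and 5 of 8 libraries were best matched to their own number. With the replicate block the counts were 2313 higher and 2334 lower, and 20 rather than 7 of 40 replication genes were higher.

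Against siPERK-1 the replicate block gave 645 higher and 550 lower, the 2-fold call 3 and 19, and leaving out 1 library 211 to 341 higher and 180 to 286 lower. Against the inhibitor the 2-fold call gave 286 and 263, and leaving out 1 library 2994 to 3295 higher and 3015 to 3319 lower. The block there gave 3657 and 3617.

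No called difference of a named gene changed sign in these settings. Sign changes of genes that were not called were not counted. With DESeq2 size factors the inhibitor comparison had 3186 higher and 3512 lower, against 3381 and 3352. Of the named genes, 122 of 138 kept their side of the threshold against siCtrl in all 15 alternatives, 23 of 37 against siPERK-1, and 106 of 122 against the inhibitor. Beyond the counts given above, the block added the siCtrl calls of ATF4, PPP1R15A, TM4SF1 and UGT2B11 and, against siPERK-1, those of RELB, OR51E1, UGT2B10, UGT2B11, CCR2, EIF2S3, IRF1, TRAF2, SLC1A1, SLC6A6, QSOX1, TXNDC12, VCP, PLK1, HSPB1 and IFITM3, and against the inhibitor those of RLN1, ACPP, PDIA2, MCM2, CCNA2, BIRC5, PLA2G2A and NDUFV1. Differences in genes of a few counts, such as CXCL8, are limited by depth.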

Other observations

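Heat shock genes also differed between siPERK-3 and the PERK inhibitor. Of 24 heat shock genes 16 were higher with siPERK-3 and 1 lower, and HSP90AA1 stood at 877–1032 CPM with the inhibitor, a log2 difference of 0.57 ± 0.08. Of 40 replication genes 2 were higher and 13 lower, and of 30 mitotic genes 0 were higher and 10 lower. With the replicate block these were 5 and 18 for replication and 5 and 16 for mitosis. CDC6, which loads the replicative helicase, stood at 119, 137, 127 and 138 CPM with the inhibitor (difference -0.78 ± 0.07, edgeR adjusted p = 1.9e-12). The share of all tested genes was 23.6% higher and 23.4% lower.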
